A study of Rattus norvegicus with 20 samples.

Results

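The nuclear receptors described here are 34 listed rat genes of the family, chosen by name and read through the brightest probe whose transcript belongs to each gene. Of these, 32 were matched to a probe, against 15705 named genes on the array; Nr6a1 and Rora were not matched. Nuclear receptors are transcription factors that bind DNA, in many cases after binding a small fat-soluble ligand such as a steroid, an oxysterol, a bile acid, a fatty acid or a retinoid. In the ovary, Nr5a1 (SF-1) and Nr5a2 (LRH-1) switch on the genes of steroid synthesis, while Nr0b1 (DAX-1) and Nr0b2 (SHP) lack a DNA-binding domain and repress other receptors. The retinoid X receptors are the common partners of the lipid and xenobiotic sensors, and Pparg is known in rat granulosa cells, where its mRNA drops after the surge of luteinising hormone.

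RNA from entire ovaries of 46-day-old daughters of Sprague Dawley rats was measured on 20 one-colour Agilent arrays, 1 animal per array, from independent litters per the labels. The dams ate a mixture of brominated flame retardants (DE-71 52.1%, BDE-209 44.2%, HBCD 3.3% and DE-79 0.4%) from at least a week before mating up to weaning, in feed holding 0, 0.75, 250 or 750 mg/kg. These diets were planned to give a daily 0, 0.06, 20 or 60 mg per kg of body weight, and the groups, called by that dose in mg, held 5, 4, 5 and 6 daughters. The dose is that of the dam's diet, so what each daughter took up was not measured here.

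A level is given as log2 of the processed signal minus log2 of the 75th percentile of the array, so 0 is the 75th percentile and each unit is a doubling. The 75th percentile ran from 1158 to 1737, and 74.8% to 83.4% of spots were well above background. The arrays lay on 3 slides, each with all 4 groups. Of 12 marker lists of cell types an ovary preparation could hold, granulosa, theca, luteal, stromal, macrophage, endothelial, smooth muscle, surface epithelial and erythrocyte markers were all above background on every array. So were 7 of 8 oocyte, 2 of 3 oviduct and 3 of 5 adipocyte markers. These counts are of the genes measured. The oocyte, oviduct and adipocyte lists held 11, 8 and 6 genes, and only 4 of the oviduct genes had a probe. Of the granulosa, theca and surface epithelial lists, 7 of 8, 5 of 6 and 4 of 5 genes were measured.

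Of the 32 receptors with a probe, 25 were well above background on all 20 arrays. Nr4a3, an orphan receptor induced early after many stimuli, was above background on 19 arrays, and Hnf4a, a receptor best known from liver and gut, on 17. Nr1i3 (CAR), a sensor of foreign compounds, and Rarb, a retinoic acid receptor, were above it on 8 arrays each. Esrrb was above background on 0 arrays, and Esrrg and Rorb on 1 each, so these 3 stood at or near the background and were not tested. The other 29 were tested, since each was above background on at least 4 arrays. They passed that filter in all groups together, and no group had a tested receptor below background on all of its arrays. Detection was uneven for Nr1i3, above background on 4 of 5 arrays at 0 mg. It was above it on 1 of 4, 2 of 5 and 1 of 6 arrays at 0.06, 20 and 60 mg. Rarb was above it on 2 arrays of each group. The differences given for these receptors below are of values near the background.

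Brightness depends on the probe as well as on the mRNA, so the order that follows is one of signals. Esrra, an orphan receptor that drives mitochondrial genes, was the brightest of the 32 on 20 of 20 arrays. Its mean was 1.91 log2, brighter than 89.9% of all probes. Nr2f6, an orphan repressor, followed at 1.65 and took rank 2 or 3 on every array. Pparg stood at 1.39 and ranged from rank 2 to 6, and Nr1h2 (LXR beta), a sensor of oxysterols, at 1.1 and rank 3 to 5. Nr5a2 at 0.76, Nr0b2 at 0.64, Rarg at 0.23 and Nr1h3 (LXR alpha) at -0.12 came next, and their ranks overlapped from array to array. These neighbours were not separated beyond their spread between animals.

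In the middle stood Rxrb at -0.33, Rara at -0.76, Nr2c1 at -0.90 and Nr4a2 at -0.94. They were followed by Nr0b1 at -2.01, Nr5a1 at -2.03, Nr1i2 (PXR), a sensor of foreign compounds, at -2.37, and Nr3c1, the glucocorticoid receptor, at -2.80. Nr1h4 (FXR), the bile acid receptor, stood at -3.47 and Nr3c2, the mineralocorticoid receptor, at -3.55. Receptors dimmer than the median probe included Nr2c2 at -4.03, Ppard at -4.21, Rxra at -4.50, Rxrg at -4.55, Nr2f1 at -4.73, Ppara at -4.76 and Vdr, the vitamin D receptor, at -5.70. In all, 18 of the 32 were brighter than the median probe.

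**Figure D1:**
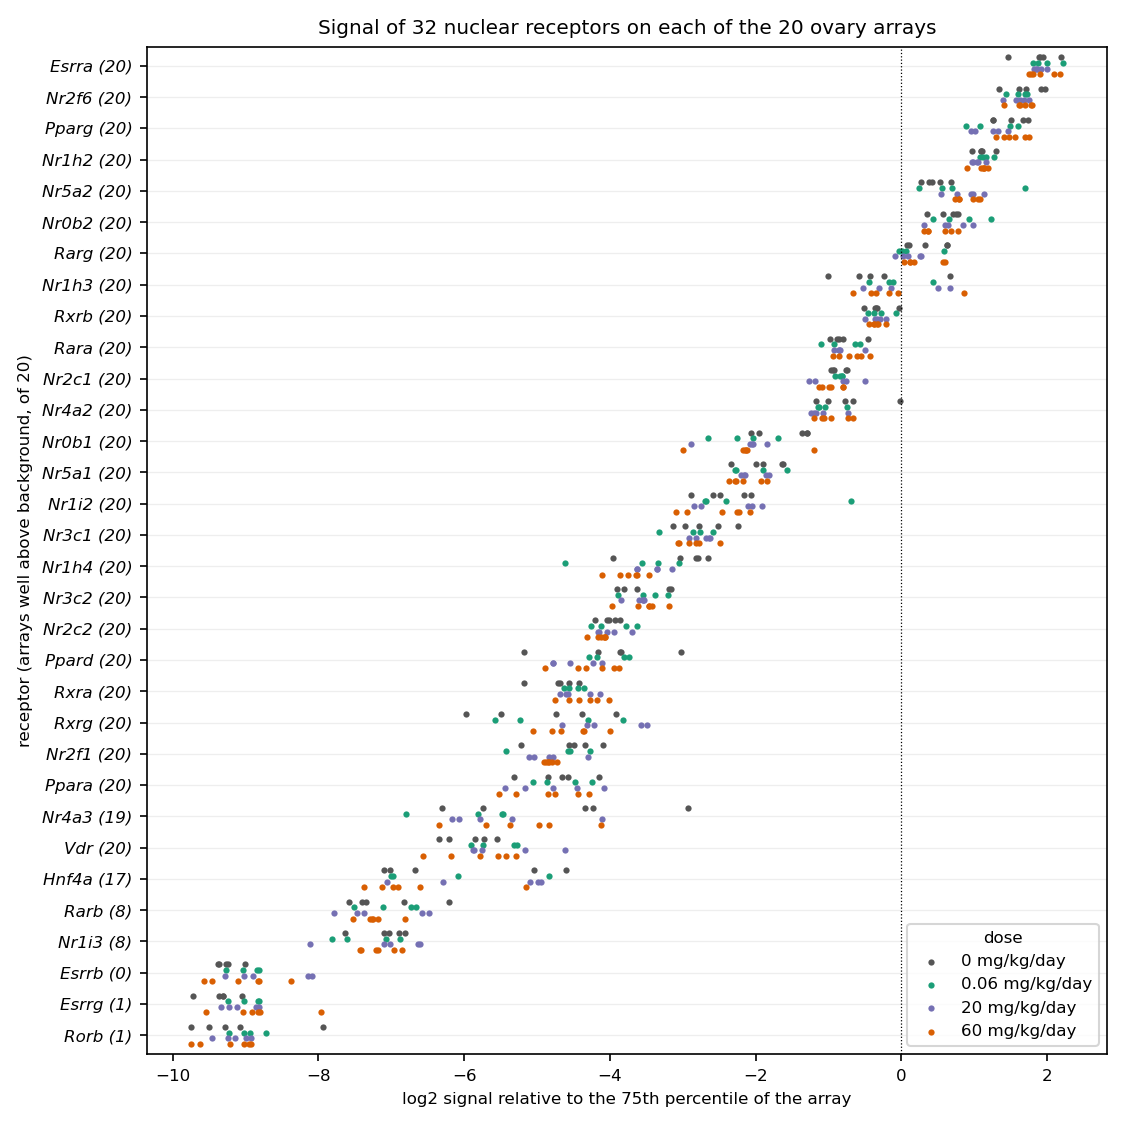
Each point is 1 array. The horizontal axis gives the log2 signal relative to the 75th percentile of the array (dotted line at 0), receptors run down the page by mean signal, colour gives the dose, and the number after a symbol counts the arrays well above background. Esrra leads at a mean of 1.91; Nr4a3 spans 3.86 log2 units over the 20 arrays and Nr1h2 0.40.

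Receptors differed in how much they varied between animals of 1 dose. The residual SD within dose groups had a median of 0.282 log2 over the 29 tested receptors, beside 0.281 over all 23795 probes tested. The steadiest was Nr1h2 at 0.097, followed by Rxrb at 0.133 and Nr2f6 at 0.174. The widest were Hnf4a at 0.983, Nr4a3 at 0.937, Rxrg at 0.637, Nr1i2 at 0.550 and Nr1h3 at 0.526. With the slide of each array taken into the fit, Hnf4a fell to 0.326, so most of its spread went with slide. The other 4 were then at 0.962, 0.512, 0.564 and 0.477 in that order. By the SD without slide in the fit, 15 of the 29 lay above the median of all probes, and Nr1h2 was steadier than all but 2.60% of them.

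Among the paralogs, Nr1h2 and Nr1h3 bind the same oxysterols, and the probe of the first spread 0.097 and that of the other 0.526. Hnf4a and Nr3c1 separated by slide. On the 7 arrays of slide 3, Hnf4a lay between -5.15 and -4.60, and on the other 13 arrays between -7.38 and -6.08. Nr3c1 lay between -2.68 and -2.24 on slide 3, and between -3.33 and -2.76 on the others. These were the 2 receptors of 29 with all slide 3 arrays above the rest, where 8.03% of all probes tested did so; 0 receptors and 0.063% of probes lay wholly below.

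In limma, slide differed for 5 of the 29 receptors (17.2%) at an adjusted p under 0.05, beside 22.1% of all probes tested. They were Hnf4a (adjusted p = 1.80e-08), Nr3c1 (0.00222), Rarb (0.0272), Rxrg (0.0464) and Nr2f6 (0.0471). What differed between the slides cannot be told from the headers, so a second fit took slide in as a block. It moved 35 of the 87 receptor differences below by over 1.5 times, 5 of them across 0; 2 of the 35 were larger than their SE without the block (Nr2c2 and Hnf4a in the 60 mg group). A dimmer probe of Nr3c1 followed the brighter one with r = 0.274 over the 20 arrays, so its slide pattern rests on 1 probe. The dimmer probe of Nr2f6 followed its brighter one with r = 0.171, so the slide difference of Nr2f6 rests on 1 probe too.

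**Figure D2:**
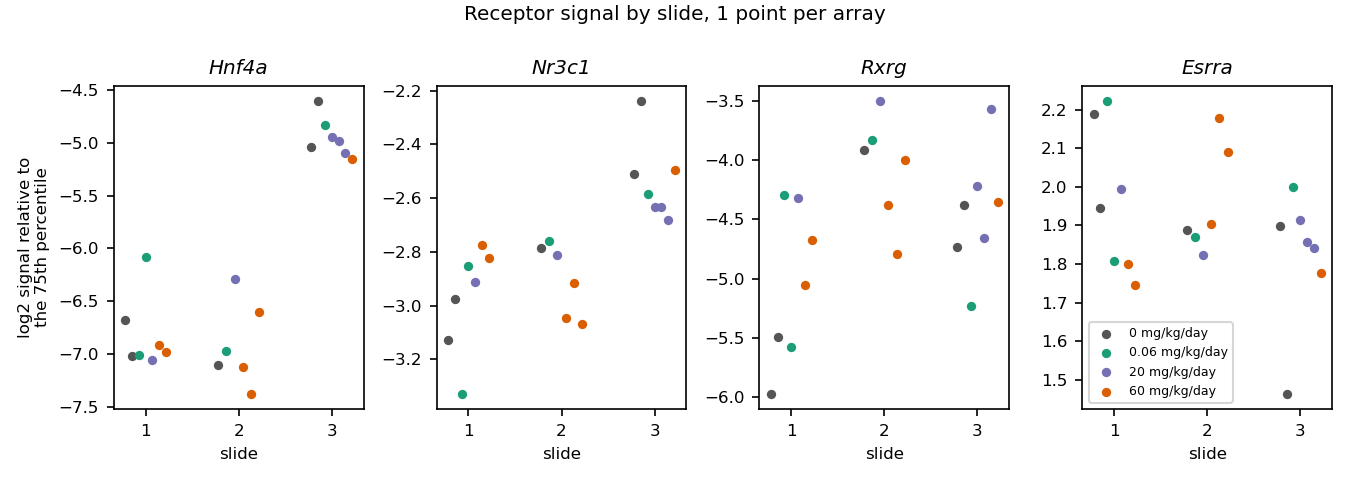
Log2 signal of Hnf4a, Nr3c1, Rxrg and Esrra by slide, 1 point per array, coloured by dose. All 7 arrays of slide 3 lie above the other 13 for Hnf4a and Nr3c1, while the slides overlap for Rxrg and Esrra.

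Setting the dosed groups against the 0 mg group asks whether feeding the dams left a difference in receptor mRNA of the daughters' ovaries. No receptor passed at any dose. With p-values adjusted over all 23795 probes, limma called 0 of the 29 receptors, and 0.0% of all probes, in the 0.06, 20 and 60 mg groups and for the trend over the order of the doses. The lowest adjusted p of a receptor was 0.9997, 0.933 and 0.777 at the 3 doses and 0.840 for the trend.

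Without adjustment, 1, 3 and 3 receptors had p under 0.05 in the 0.06, 20 and 60 mg groups. That is 3.45%, 10.3% and 10.3% of the receptors, beside 3.06%, 4.57% and 6.34% of all probes (728, 1087 and 1508). In the 0.06 mg group 0 of them were higher and 1 (Nr1h4) lower, beside 1.42% and 1.64% of probes. In the 20 mg group 2 (Nr5a2 and Rxrg) were higher and 1 (Nr0b1) lower, beside 2.73% and 1.84%. In the 60 mg group 2 (Nr5a2 and Rxra) were higher and 1 (Nr1h4) lower, beside 2.78% and 3.56%. Over the dose order there were 3 (10.3%), beside 5.75%: Nr5a2 and Rxra upward, beside 2.98%, and Nr1h4 downward, beside 2.77%. With 29 receptors, 1 more or less moves a share by 3.45 points.

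The median difference of the 29 receptors was 0.02, -0.03 and -0.08 log2, beside -0.03, 0.03 and -0.04 over all probes. Of the 29, 16, 12 and 9 (55.2%, 41.4% and 31.0%) had a difference above 0, beside 43.5%, 57.9% and 39.4% of probes. The slope over the dose order was above 0 for 9 (31.0%), beside 42.4%. The median size of a receptor's difference, whatever its sign, was 0.158, 0.137 and 0.140, beside 0.118, 0.128 and 0.128 over all probes.

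**Figure D3:**
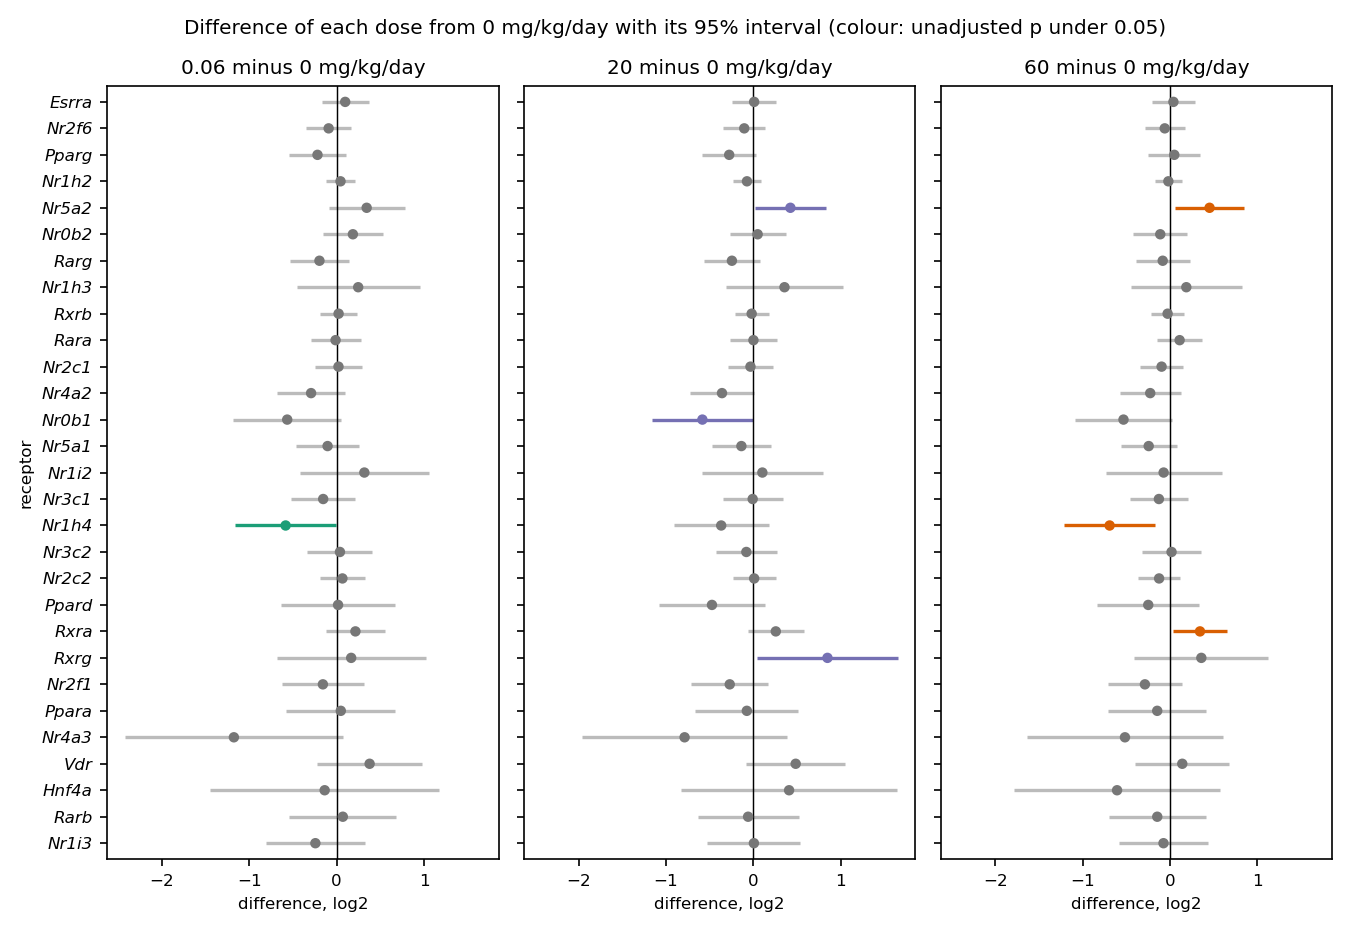
Difference in log2 signal of each dosed group from the 0 mg group for the 29 tested receptors, with its 95% interval; colour marks an unadjusted p under 0.05. Most intervals span 0, and no difference passed after adjustment over all probes.

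In what follows a difference is the mean of a dosed group minus that of the 0 mg group in log2, ± its SE in limma, given for 0.06, 20 and 60 mg in that order. The receptors that steer steroid synthesis are taken first. Nr5a1, which switches on the whole steroid pathway, lay at -2.34, -1.62, -2.0, -1.90 and -1.65 on the 0 mg arrays. In the 0.06 mg group it lay at -2.28, -2.27, -1.90 and -1.57, in the 20 mg group at -1.81, -2.15, -2.21, -1.86 and -2.15, and in the 60 mg group at -2.37, -1.93, -2.27, -1.85, -2.18 and -2.28. The groups overlapped throughout. Its difference from the 0 mg group was -0.10 ± 0.17, -0.14 ± 0.16 and -0.24 ± 0.15 (SE), the last with a 95% interval of -0.56 to 0.08.

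Nr5a2, the close relative of Nr5a1 found in granulosa and luteal cells, lay at 0.52, 0.38, 0.68, 0.27 and 0.42 on the 0 mg arrays. It lay at 0.69, 1.70, 0.55 and 0.25 in the 0.06 mg group, at 1.13, 0.96, 0.99, 0.54 and 0.77 at 20, and at 0.98, 0.78, 1.08, 0.79, 0.74 and 1.06 at 60. All 6 arrays in the 60 mg group and 4 of 5 at 20 lay above all 5 control arrays, while the 0.06 group spread over both sides. How many of all probes separate in this way was not counted, here or for the receptors below, so these array orders are description only. The mean was 0.91 ± 0.15 in the 60 mg group (SD, n = 6) and 0.45 ± 0.15 in the 0 mg group (SD, n = 5). The difference was 0.34 ± 0.21, 0.42 ± 0.20 and 0.45 ± 0.19 (SE) (limma adjusted p = 0.9997, 0.933 and 0.777), and the 95% interval for 60 mg was 0.06 to 0.84. Without replicate 2, at 1.70, the difference of the 0.06 mg group was 0.04.

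The other Nr5a2 probe followed with r = 0.960 and differences of 0.41, 0.52 and 0.47. Both probes are annotated to 1 transcript, so they are not separate measurements of the animals. With slide as a block the brighter probe stood at 0.49 at 20 and 0.43 in the 60 mg group. Without any 1 array its difference in the 60 mg group ran from 0.41 to 0.51.

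Nr0b1, which binds and represses Nr5a1, lay at -1.96, -1.29, -2.06, -1.36 and -1.30 on the 0 mg arrays and at -2.26, -2.03, -2.66 and -1.69 in the 0.06 mg group. In the 20 mg group it lay at -2.05, -2.08, -2.88, -1.84 and -2.04, and in the 60 mg group at -1.20, -2.17, -2.11, -2.14, -3.0 and -2.13. All dosed arrays but 1 lay below the 3 highest controls and many overlapped the other 2, while 60 mg replicate 1 was the highest of all 20. The difference was -0.57 ± 0.29, -0.58 ± 0.28 and -0.53 ± 0.26 (limma adjusted p = 0.9997, 0.933 and 0.777). With slide as a block the difference in the 60 mg group was -0.40. Nr0b2, the other receptor without a DNA-binding domain, had differences of 0.19 ± 0.16, 0.05 ± 0.15 and -0.11 ± 0.15.

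The promoters of these 3 genes, from 250 bases before the start to 50 after it, are shown because Nr5a2 and Nr0b1 had mean differences of opposite sign, neither past adjustment, and because receptors of the family bind the hexamer AGGTCA. Capitals mark AGGTCA on either strand and CACGTG, an E-box that reads alike on both strands. The sequences are RefSeq's on build GRCr8, 5′ to 3′ along the gene: Nr5a1 at chr3:42895997-42896296 on the minus strand, Nr5a2 at chr13:50984889-50985188 on the minus strand and Nr0b1 at chrX:54707408-54707707 on the plus strand.
Nr5a1: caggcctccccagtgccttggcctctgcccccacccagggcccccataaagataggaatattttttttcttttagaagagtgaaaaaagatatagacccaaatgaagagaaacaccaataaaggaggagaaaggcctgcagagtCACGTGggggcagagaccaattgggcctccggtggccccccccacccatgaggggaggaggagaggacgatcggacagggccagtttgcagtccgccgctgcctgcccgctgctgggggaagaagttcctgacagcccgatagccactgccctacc
Nr5a2: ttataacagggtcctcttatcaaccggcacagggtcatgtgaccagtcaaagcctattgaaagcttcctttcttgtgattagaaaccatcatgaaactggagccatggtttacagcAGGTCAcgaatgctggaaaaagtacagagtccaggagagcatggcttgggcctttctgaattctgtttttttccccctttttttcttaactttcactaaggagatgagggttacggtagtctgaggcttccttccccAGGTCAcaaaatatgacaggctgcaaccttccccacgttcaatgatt
Nr0b1: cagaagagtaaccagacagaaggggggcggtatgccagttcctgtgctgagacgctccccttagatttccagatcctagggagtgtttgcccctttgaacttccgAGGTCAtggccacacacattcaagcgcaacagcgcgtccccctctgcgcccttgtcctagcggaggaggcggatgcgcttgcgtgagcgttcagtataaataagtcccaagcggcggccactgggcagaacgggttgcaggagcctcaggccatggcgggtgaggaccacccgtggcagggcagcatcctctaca

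Nr5a2 holds AGGTCA at positions -134 and 4, counted with no 0 from 1 at the start in the RefSeq promoter table, and Nr0b1 holds it at -145. The window of Nr5a1 has no AGGTCA and carries CACGTG at -106. AGGTCA was found in 4 of the 30 listed receptors with at least 1 window (13.3%: Nr5a2, Nr0b1, Rarg and Esrrg), beside 16.2% of all 33469 windows of 300 bases, both strands searched. The longer AAGGTCA, which contains AGGTCA, was found in 0 of 30, beside 4.61%. CACGTG was found in 2 (6.67%: Nr5a1 and Nr0b2), beside 6.42%, and GGGCGG, a GC box, in 17 (56.7%), beside 33.1%. Some receptors have several windows, so the shares of receptors and of windows are not counted alike. A match describes letters, not binding.

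Target genes of Nr5a1 and Nr5a2 were read from a list of 16, all tested. None passed adjustment, and without it 2 had p under 0.05 in each dosed group, beside 3.06%, 4.57% and 6.34% of all probes. Inha, the inhibin alpha subunit, stood at -0.30 ± 0.12 in the 0.06 mg group and -0.35 ± 0.11 at 20. Fdxr, which passes electrons to the steroid-making enzymes of mitochondria, stood at 0.30 ± 0.14 at 0.06 and 0.27 ± 0.13 at 60. Amh, a hormone of small growing follicles, stood at -0.96 ± 0.38 at 20, and Por, the electron donor of the enzymes outside mitochondria, at 0.51 ± 0.23 at 60. The median of the 16 was 0.16, -0.17 and -0.01, beside -0.01, 0.02 and -0.02 over all genes tested.

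Among the lipid sensors, Nr1h4, in the 60 mg group, had the smallest p of any receptor. It lay at -2.79, -2.83, -3.96, -3.04 and -2.66 on the 0 mg arrays and at -4.62, -3.33, -3.56 and -3.05 in the 0.06 mg group. In the 20 mg group it lay at -3.62, -3.36, -3.15, -3.35 and -3.63, and in the 60 mg group at -3.46, -3.63, -3.86, -3.65, -4.11 and -3.76. All 6 arrays in the 60 mg group lay below 4 of the 5 controls and 5 of them above the remaining control, replicate 3. The mean was -3.75 ± 0.23 in the 60 mg group (SD, n = 6) and -3.05 ± 0.52 in the 0 mg group (SD, n = 5).

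The difference of Nr1h4 was -0.58 ± 0.27 at 0.06, -0.37 ± 0.26 at 20 and -0.69 ± 0.25 in the 60 mg group. The limma adjusted p was 0.9997, 0.933 and 0.777. The 95% interval in the 60 mg group was -1.21 to -0.17. Without replicate 1, at -4.62, the difference of the 0.06 mg group was -0.26, and without control replicate 3 that of the 20 mg group was -0.59. With normexp background correction the difference there was -0.37. A dimmer probe of Nr1h4, above background on 10 arrays, stood at -0.59, -0.34 and -0.82 and followed the brighter one with r = 0.876.

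Nr1h3 had differences of 0.25 ± 0.34, 0.36 ± 0.32 and 0.19 ± 0.30, and Nr1h2 of 0.04 ± 0.08, -0.07 ± 0.08 and -0.02 ± 0.07. The 95% interval of Nr1h2 in the 60 mg group was -0.17 to 0.13, the tightest bound among the receptors, while that of Nr1h3 was -0.45 to 0.82. With slide as a block the Nr1h3 difference in the 60 mg group was 0.02. Of 8 LXR and FXR targets tested, 0 passed adjustment. In the 20 mg group Mylip, which marks the LDL receptor for breakdown, stood at -0.38 ± 0.15, and Srebf1, which drives fatty acid synthesis, at 0.27 ± 0.11 (limma adjusted p = 0.933). The list median was 0.04, 0.14 and 0.12 at the 3 doses.

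Pparg, which governs fat storage and is bright in granulosa cells, had differences of -0.22 ± 0.16, -0.28 ± 0.15 and 0.05 ± 0.14. Ppara, the receptor of fatty acid burning, had differences of 0.05 ± 0.30, -0.07 ± 0.28 and -0.15 ± 0.27, and Ppard of 0.02 ± 0.31, -0.47 ± 0.29 and -0.25 ± 0.28. Of 13 PPAR targets, 0 had p under 0.05 at any dose even before adjustment. Angptl4, an inhibitor of lipoprotein lipase, stood at 0.32 ± 0.15 in the 60 mg group (limma adjusted p = 0.777).

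Of the retinoid X receptors, Rxra lay at -5.17, -4.56, -4.43, -4.68 and -4.71 on the 0 mg arrays, at -4.64, -4.36, -4.56 and -4.43 in the 0.06 mg group, at -4.14, -4.60, -4.68, -4.58 and -4.27 at 20, and at -4.43, -4.57, -4.28, -4.17, -4.01 and -4.75 at 60. Its groups overlapped, with 4 of the 6 arrays of the 60 mg group at or above the highest control. The difference was 0.21 ± 0.16, 0.26 ± 0.15 and 0.34 ± 0.15 (limma adjusted p = 0.9997, 0.933 and 0.777). Without control replicate 1, at -5.17, the differences were 0.10, 0.14 and 0.23. With slide as a block the 60 mg group stood at 0.28, where the unadjusted p was no longer under 0.05.

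Rxrg lay at -5.98, -5.50, -3.91, -4.73 and -4.38 on the 0 mg arrays and at -4.29, -5.58, -3.82 and -5.24 in the 0.06 mg group. In the 20 mg group it lay at -4.32, -3.50, -4.22, -4.66 and -3.57, and in the 60 mg group at -5.05, -4.68, -4.37, -4.79, -4.00 and -4.36. The control arrays spanned more than 2 log2 units and covered most of the other groups. The difference in the 20 mg group was 0.85 ± 0.38 (95% interval 0.05 to 1.65, limma adjusted p = 0.933), and with normexp background correction 0.47. The differences of the other dosed groups were 0.17 ± 0.41 at 0.06 and 0.36 ± 0.37 at 60, the last 0.17 with slide as a block and 0.09 without control replicate 1. The stromal marker list, with which Rxrg moved between arrays as described further on, ran from -0.01 to 0.41 in the 20 mg group and from -0.43 to 0.15 in the 0 mg group. Its part in the difference was not tested. Rxrb had differences of 0.02 ± 0.10, -0.02 ± 0.09 and -0.03 ± 0.09.

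The retinoic acid receptors Rara, Rarb and Rarg had no unadjusted p under 0.05 in any dosed group. Rara had differences of -0.01 ± 0.14, 0.00 ± 0.13 and 0.11 ± 0.12, Rarb of 0.07 ± 0.29, -0.06 ± 0.28 and -0.15 ± 0.26, and Rarg of -0.20 ± 0.16, -0.25 ± 0.15 and -0.08 ± 0.15. Rarb stood at 0.16, -0.17 and 0.03 with slide as a block, so its value in the 60 mg group turned sign, and Rarg in that group stood at -0.01. Of 13 genes that make, carry or break down retinoids, 0 passed adjustment. Rdh11, a retinal reductase, stood at -0.30 ± 0.11 at 20 and -0.32 ± 0.11 in the 60 mg group (limma adjusted p = 0.933 and 0.777). Rdh10, which oxidises retinol on the way to retinoic acid, stood at -0.49 ± 0.22 at 60, and at -0.35 with slide as a block. Rbp4, the carrier of retinol in blood, stood at 0.62 ± 0.32 in the 0.06 mg group.

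The xenobiotic sensors Nr1i2 and Nr1i3 had differences of 0.32 ± 0.35, 0.10 ± 0.33 and -0.07 ± 0.32, and of -0.24 ± 0.27, 0.01 ± 0.25 and -0.07 ± 0.24. The value of Nr1i2 in the 0.06 mg group leans on replicate 1, at -0.69, against -2.70, -2.69 and -2.40 on the other 3 arrays. Of 7 of their target genes tested, 0 passed adjustment. In the 60 mg group 2 were higher and 2 lower at an unadjusted p under 0.05, beside 2.78% and 3.56% of all probes. Por, already given with the targets of Nr5a1 and Nr5a2, is on this list too and is 1 of the 2 higher. Abcb1a, a drug efflux pump, stood at -0.91 ± 0.38 and Alas1, the first enzyme of haem synthesis, at 0.72 ± 0.31 (limma adjusted p = 0.777 each). With slide as a block Abcb1a stood at -0.64.

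For the corticosteroid receptors the difference was -0.15 ± 0.17, -0.01 ± 0.16 and -0.13 ± 0.16 for Nr3c1, and 0.04 ± 0.18, -0.08 ± 0.17 and 0.02 ± 0.16 for Nr3c2. Nr3c1 stood at -0.09, -0.10 and -0.05 with slide as a block, and Nr3c2 at 0.08, -0.14 and 0.10. Of 10 corticosteroid targets, Cdkn1c, a cell cycle inhibitor, stood at -0.33 ± 0.15 in the 0.06 mg group (limma adjusted p = 0.9997). The other 9 had larger p at that dose, and 0 of the 10 were under 0.05 at 20 and 60. Vdr had differences of 0.38 ± 0.28, 0.48 ± 0.27 and 0.14 ± 0.26, and the 3 vitamin D genes tested, Cyp27b1 among them at -0.32 ± 0.16 at 60, had 0 under 0.05.

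Nr4a3 lay at -2.93, -4.24, -5.74, -4.35 and -6.30 on the 0 mg arrays and at -5.47, -6.80, -5.81 and -5.47 in the 0.06 mg group. In the 20 mg group it lay at -5.35, -6.07, -4.11, -5.79 and -6.17, and in the 60 mg group at -4.83, -5.38, -4.12, -6.35, -4.98 and -5.71. The control arrays covered more than 3 log2 units, so a mean difference of -1.18 ± 0.59 in the 0.06 mg group had a 95% interval of -2.42 to 0.07. Nr4a2, a relative, had differences of -0.29 ± 0.19, -0.36 ± 0.17 and -0.23 ± 0.17. Control replicate 1 was the highest of the 20 arrays for Nr4a3 and for Nr4a2.

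The orphan receptors of the COUP and testicular receptor group, which mostly repress, had no unadjusted p under 0.05 in any dosed group. Nr2f6 had differences of -0.09 ± 0.12, -0.10 ± 0.11 and -0.06 ± 0.11, and Nr2f1 of -0.16 ± 0.22, -0.27 ± 0.21 and -0.29 ± 0.20. Nr2c1 had differences of 0.02 ± 0.13, -0.03 ± 0.12 and -0.10 ± 0.12, and Nr2c2 of 0.07 ± 0.12, 0.01 ± 0.12 and -0.12 ± 0.11. Under the slide block Nr2f6 stood at -0.05 in the 20 mg group and -0.10 in the 60 mg group, and Nr2c2 at -0.07 in the 60 mg group. Hnf4a had differences of -0.14 ± 0.62, 0.41 ± 0.59 and -0.61 ± 0.56, and with slide as a block of 0.14, 0.04 and -0.16. Only 1 of the 6 arrays of the 60 mg group lay on slide 3, against 2 of 5 in the 0 mg group.

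Coregulators, the proteins that receptors recruit to open or close chromatin, were measured by 16 genes that passed the filter out of 24 listed. None passed adjustment. Ppargc1b, a coactivator of the Esrra and PPAR pathways, stood at 0.31 ± 0.18 at 20 and 0.52 ± 0.17 in the 60 mg group (limma adjusted p = 0.933 and 0.777). Esrra itself had differences of 0.10 ± 0.13, 0.01 ± 0.12 and 0.04 ± 0.12. Over the 85 distinct genes of the 8 lists, 3, 5 and 8 (3.53%, 5.88% and 9.41%) had an unadjusted p under 0.05, beside 3.06%, 4.57% and 6.34% of all probes.

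Cyp17a1, the enzyme of theca cells that makes androgens, fell into separate sets of arrays. On 15 arrays it lay between 1.71 and 3.86, and on 5 between -3.52 and -2.62, with nothing over the 4.32 log2 units between. The 5 low arrays were 0 mg replicate 3, 0.06 replicate 1, 20 replicates 2 and 5, and 60 replicate 5. Here as in all bulk values, fewer cells of a type and less RNA per cell cannot be told apart.

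Nr1h3 lay at 0.67, 0.44, 0.67, 0.51 and 0.86 on these 5 arrays and between -1.0 and -0.05 on the other 15, with a median of -0.34. It was the 1 receptor of 29 with the 5 arrays all above the rest, and 0 receptors had them all below. Over all other probes tested, 3.39% lay wholly above, 1.47% wholly below and 4.86% either way. The 1 of 29 receptors (3.45%) is near the 3.39% of probes, so such a separation was no more common among the receptors. Since the sets were told apart by a measured value, they were not averaged or tested. The theca list, which holds Cyp17a1, lay between -1.61 and -1.22 on the 5 arrays and between -0.01 and 1.11 on the others. The smooth muscle list lay between 0.25 and 0.68 and between -0.70 and 0.44.

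Pparg lay between 0.89 and 1.30 on the 5 arrays and between 1.07 and 1.76 on the 15. Nr1i2 lay between -2.17 and -0.69 and between -3.09 and -2.05, and Nr1h4 between -4.62 and -3.36 and between -3.86 and -2.66. All 3 overlapped. The promoter of Nr1h3, the 1 receptor without overlap, is RefSeq's on GRCr8 at chr3:97623180-97623479, minus strand. It holds neither AGGTCA nor CACGTG.
Nr1h3: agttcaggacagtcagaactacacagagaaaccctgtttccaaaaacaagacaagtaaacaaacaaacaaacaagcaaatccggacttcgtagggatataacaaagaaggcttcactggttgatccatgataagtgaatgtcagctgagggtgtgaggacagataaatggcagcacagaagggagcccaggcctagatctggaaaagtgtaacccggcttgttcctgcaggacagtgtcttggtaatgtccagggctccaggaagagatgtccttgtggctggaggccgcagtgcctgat

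Within the 15 arrays of high Cyp17a1 no receptor followed its level after adjustment. A limma slope on Cyp17a1 over these arrays had an unadjusted p under 0.05 for 2 of 29 receptors (6.9%), beside 9.07% of all probes, and 0.0% passed adjustment over all probes. The 2 were Nr5a2, with Pearson r = -0.586 (permutation p = 0.0225) and Spearman rho = -0.439 (p = 0.103), and Nr0b2, with r = -0.532 (p = 0.0435) and rho = -0.343 (p = 0.211). Over the family of 29 receptors the lowest adjusted permutation p was 0.527. Without the 2 arrays farthest from the median of Cyp17a1, r was -0.08 and -0.02, so both relations rest on those arrays. Within slide 1 the r was -0.816 for Nr5a2 and -0.705 for Nr0b2 (n = 6), and within slide 3 -0.428 and -0.761 (n = 6). Slide 2 had 3 such arrays. The 2 farthest arrays, 0.06 mg replicate 2 and 60 mg replicate 6, lay on slides 1 and 3. Each within-slide r thus holds 1 of them. The r of Nr1h3 with Cyp17a1 over the 15 arrays was -0.133 (permutation p = 0.632).

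**Figure D4:**
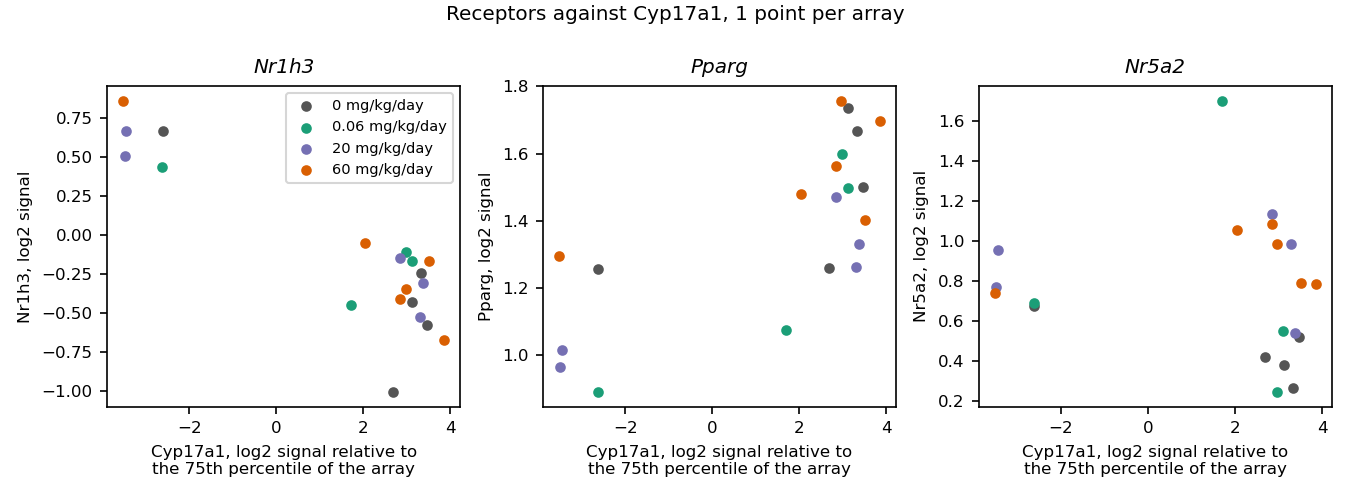
Log2 signal of Nr1h3, Pparg and Nr5a2 against that of Cyp17a1, 1 point per array, coloured by dose. The 5 arrays of low Cyp17a1 all lie above the others for Nr1h3, and overlap them for Pparg and Nr5a2.

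Receptors were then set against the mean of each cell type list over the 20 arrays, to describe what they moved with between animals. The theca list split like Cyp17a1 and was left out, which left 11 lists and 319 pairs. In limma, with the slope on the list mean adjusted over all probes tested, 16 of the 319 pairs passed (5.02%), beside 3.76% of all pairs of probe and list. A permutation p adjusted over the 319 pairs passed 14. At r of at least 0.619 in size, the smallest among those, stood 15 of the 319 (4.70%), beside 4.47% of all pairs of probe and list. These shares lie near the background, so moving with a cell type list was about as common among the receptors as among other genes.

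Esrra had r = 0.813 and rho = 0.881 with the luteal list (each permutation p = 1e-05, the smallest that 100000 resamples can give, adjusted p = 0.0016 for r, limma adjusted p = 0.00403). The r was 0.755, 0.806 and 0.968 on slides 1, 2 and 3, and 0.858 without the 2 farthest arrays. Control replicate 5 was the lowest of the 20 for Esrra, at 1.46, and for the luteal list, at -2.0. The luteal list lay at -1.17 on 0.06 mg replicate 2 and between -0.20 and 0.77 on the others.

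Rxrg had r = 0.872 and rho = 0.850 with the stromal fibroblast list (permutation p = 1e-05 and 2e-05, adjusted p = 0.0016 for r, limma adjusted p = 0.000807), and r = 0.888, 0.962 and 0.854 on the 3 slides. With the smooth muscle list it had r = 0.785 and rho = 0.808 (permutation p = 4e-05 each, limma adjusted p = 0.00258). Over the 15 arrays of high Cyp17a1 that r was 0.643. Nr2c2, an orphan receptor also called TR4, had r = 0.803 and rho = 0.824 with the endothelium list (permutation p = 3e-05 and 5e-05, limma adjusted p = 0.00892), with 0.911, 0.212 and 0.850 on the slides. Leaving out the 5 arrays of low Cyp17a1, a choice made after seeing the data, r was 0.816 for Esrra with the luteal list, 0.852 for Rxrg with the stromal list and 0.813 for Nr2c2. Those 3 pairs alone passed the adjusted permutation p there.

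Pparg ran against the smooth muscle list, with r = -0.742 and rho = -0.777 (permutation p = 0.00021 and 0.00014, limma adjusted p = 0.00999). Over the 15 arrays of high Cyp17a1 its r was -0.431, and 4 of the 5 left out had the highest smooth muscle values. Nr1h3 had r = -0.669 with the granulosa list and Vdr -0.658, while Rarg had 0.674 (limma adjusted p = 0.0235, 0.0266 and 0.0272). Without the 2 farthest arrays these were -0.657, -0.522 and 0.546, and over the 15 arrays of high Cyp17a1 -0.519, -0.594 and 0.612. On slides 1, 2 and 3 Rarg had 0.889, -0.231 and 0.557, while Nr1h3 and Vdr were below 0 on each. By rank over 20 arrays, rho was -0.69 for Nr1h3, -0.59 for Vdr and 0.58 for Rarg. Only that of Nr1h3 passed (adjusted permutation p = 0.0435, 0.139 and 0.152). A dimmer probe of Rarg, above background on 20 arrays, followed the brighter one with r = 0.304, so the Rarg relations to marker lists rest on 1 probe. Rarg also had r = 0.673 with the oocyte list, which did not pass in limma (adjusted p = 0.0648). It did not pass by rank either, at rho = 0.460 (adjusted permutation p = 0.282).

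The relations of Rxrb, Rarg and Nr2f1 with the luteal list rested on its 2 lowest arrays. The r was -0.735, -0.619 and 0.640 over 20 arrays and -0.159, -0.414 and 0.401 without them. On slide 2 each had the opposite sign, at 0.668, 0.921 and -0.649. By rank over 20 arrays, rho was -0.40, -0.44 and 0.53, and none passed (adjusted permutation p = 0.41, 0.33 and 0.23). With the smooth muscle list, Nr1i2 had r = 0.631 and Nr4a2 -0.627 (limma adjusted p = 0.0398 and 0.0480). Over the 15 arrays these were 0.336 and -0.550. By rank over 20 arrays, rho was 0.65 and -0.56, and neither passed (adjusted permutation p = 0.082 and 0.178).

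**Figure D5:**
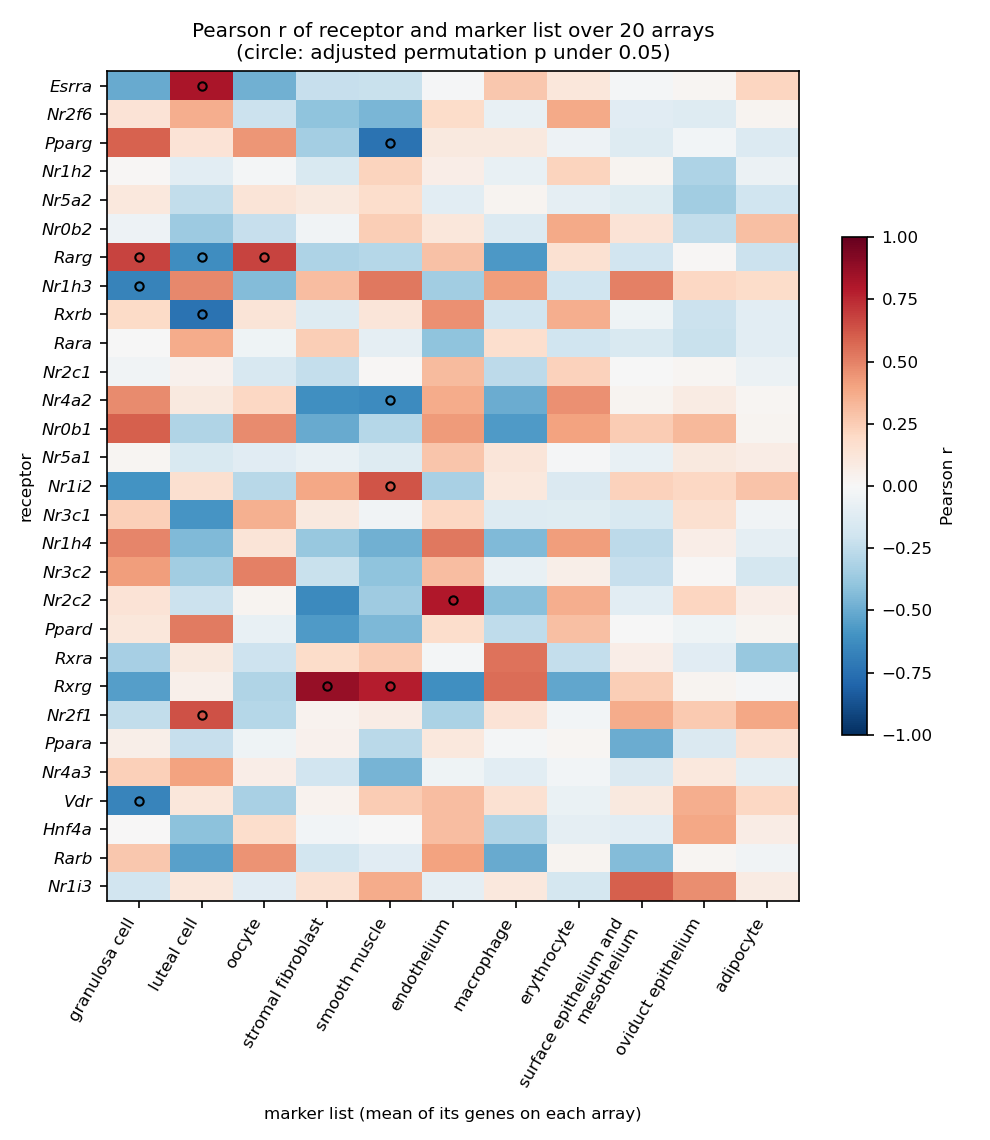
Pearson r over 20 arrays between each of 29 receptors (down the page, by mean signal) and the mean of each of 11 cell type marker lists; circles mark the 14 pairs at an adjusted permutation p under 0.05. The strongest pairs are Rxrg with stromal fibroblast (0.872), Esrra with luteal cell (0.813) and Nr2c2 with endothelium (0.803).

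Among themselves, with the dose means subtracted, 9 of 406 receptor pairs had an adjusted permutation p under 0.05, 4 positive and 5 negative. At that size of r, at least 0.712, stood 2.46% of the receptor pairs, beside 2.93% of all pairs of the 12801 named genes tested. Nr4a3 and Rara had the largest, r = 0.810, and 0.824 with slide means subtracted too. Nr3c1 went with Hnf4a at 0.789, a pair that shares the slide pattern: with slide means subtracted r was 0.297. Nr3c1 also went with Nr3c2 at 0.761 and against Esrra at -0.761, and these were 0.632 and -0.825 with slide subtracted. Nr1i2 ran against Pparg at -0.744 and Nr4a2 against Rxrg at -0.736, which were -0.732 and -0.598. The dimmer probe of Nr3c1 followed the one used with r = 0.274, so its pairs with Hnf4a, Nr3c2 and Esrra rest on 1 Nr3c1 probe. Probes for different receptors on 1 array share that array's RNA, so these values describe the 20 animals and no link between the receptors.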

How the data were processed

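Total RNA of rat ovaries (20 arrays) was labelled with Cy3, 100 ng each, for Agilent arrays of 1 colour per the labels' protocols, and arrays were grouped by the dose in the labels. Feature Extraction 11.5.1.1 gave the intensity of each spot, per the file headers; its processed signal, used here, has the background already taken off and is linear. The deposited series table holds the authors' log2 values and served as an alternative; its normalization is not given in the sources used here. Replicate 4 of the 0.06 mg group, removed by the submitters, was not analysed here.

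Levels are log2 processed signal minus log2 of the array's 75th percentile over non-control spots, with outlier spots left out and spots of a probe averaged; 0 spots were saturated. Probes were named by transcript accession through a RefSeq gene table of GRCr8 (18745 probes with 1 symbol, 0 with several, 11590 with none here), and the brightest probe stood for a gene. The 23795 probes marked well above background on 4 or more arrays were tested with limma 3.58.1 in R 4.3.3 on group means, with Benjamini-Hochberg adjustment over all of them at 0.05; the fit was tested on simulated data. Correlations used 100000-resample two-sided permutation tests in Python 3.11.15 with numpy 2.4.6, and figures matplotlib 3.10.9. The precision is limited by the number of arrays.

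All listed receptors and Cyp17a1 were named, per target list and dose the 2 members of smallest unadjusted p (some are not reported here), and per cell type list its mean. Relations to a cell type list were named at an adjusted p under 0.05 where r kept its sign without the 2 farthest arrays and with slide means subtracted, and receptor pairs were the 6 of largest r in size. The receptors and the lists were chosen with earlier results of these data known. The theca list was left out of pooled correlations because it split like Cyp17a1, a departure from the planned rule. Normexp background correction, an alternative, used the median spot signal. Alternatives were quantile normalization, other filters on dim probes, slide, spike-in slope or replicate number as a block, the authors' table, the mean of a gene's probes, pairwise fits and leaving out each array. Leaving out the 5 arrays of low Cyp17a1, and the limma slope on marker lists, were added after seeing the data. No pairing of animals by replicate number was seen. Over 27 same-number pairs of arrays from different groups the median correlation of deviations was 0.038, against -0.016 over 122 other pairs. The highest were 0.335 and 0.572, and such a check cannot exclude a pairing.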

Additional observations from a re-analysis of the deposited data

Results flagged for a closer look

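In each dose group, the highest and lowest array of each receptor were set against the group's range. Of 116 sets of values, 7 (6.03%) held an array far from the others, where chance gives about 1 in 20. Nr1i2, the PXR gene, lay at -0.69 on 0.06 mg replicate 1, while its other 3 arrays lay at -2.70 to -2.40; this is also an array of low Cyp17a1. Hnf4a lay at -5.15 on 60 mg replicate 6, against -7.38 to -6.60, and this is the only array of that dose on slide 3, where Hnf4a was higher on every array. Nr0b1 lay at -2.88 on 20 mg replicate 3, against -2.08 to -1.84, and Rara at -0.499 on the same array, against -0.92 to -0.84. Nr3c2 lay at -3.85 on 20 mg replicate 2, against -3.61 to -3.53. Rarg lay at 0.583 on 0.06 mg replicate 2, against -0.03 to 0.06, and Nr1h2 at 0.903 on 60 mg replicate 6, against 1.09 to 1.19.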

How the results depend on the processing

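In limma, 0 receptors passed adjustment at any dose, over the dose order or with Cyp17a1 under any alternative run, leaving out each array included. The differences of Nr0b1, Nr1h4, Nr5a2, Rxra and Rxrg kept their sign, except Rxrg at 0.06 mg (0.17), which was -0.10 without control replicate 1 and -0.14 without 0.06 mg replicate 3 (range -0.14 to 0.45 without 1 array). Counts at an unadjusted p under 0.05 moved with single arrays. For receptors at 0.06 mg the count of 1 became 2 with normexp, the authors' table or without the 5 arrays of low Cyp17a1, and 0 with slide or spike-in slope as a block or the mean of a gene's probes; leaving out 1 array gave 0 to 4. At 20 the count of 3 became 0 with the spike-in block and 0 to 6 without 1 array, and at 60 it was 1 to 5. The trend count of 3 became 1 with slide as a block and 1 to 5 without 1 array. For target genes the count of 3 at 0.06 became 7 with normexp or slide as a block, 5 with the stricter filter, 5 with the replicate block and 6 without the 5 low arrays (1 to 6 without 1 array). At 20 the count of 5 became 8 with slide (4 to 13), at 60 the 8 became 3 to 11, and for the trend the 8 became 5 with slide (3 to 12). The replicate block changed no call of a receptor. The 2 receptors related to Cyp17a1 became 1 with dose means subtracted, 0 without the 2 farthest arrays and 0 to 4 without 1 array. The 14 pairs with marker lists became 8 with slide means, dose means or normexp, 5 without the 2 farthest arrays, 3 without the 5 low arrays and 4 to 17 without 1 array. The 9 receptor pairs became 2 with slide means subtracted and 2 with quantile normalization. Among all probes at 20 mg, 649 were higher and 438 lower at an unadjusted p under 0.05, and 492 and 784 after quantile normalization; at 60 the counts were 661 and 847, and 895 and 631. With normexp they were 1202 and 243 at 0.06 (main setting 337 and 391), 946 and 374 at 20, 1043 and 449 at 60, and 877 and 421 for the trend (main setting 710 and 658). With no filter on dim probes they were 2342 and 425, 2435 and 443, 2136 and 947, and 1320 and 731. With the replicate block they leaned the other way, at 463 and 2005 at 60 and 539 and 1316 for the trend. The causes were not tested.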
